A study of Gallus gallus with 100 samples.

Results

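The genes described here are the secreted Wnt proteins, the receptors that bind them, the secreted proteins that enhance or block that binding, and the core of the intracellular cascade, in the pituitary gland of broiler chickens. They were taken by symbol: every gene whose name begins with WNT, FZD, SFRP, DKK or RSPO followed by a digit, together with FRZB, WIF1, LRP5, LRP6, AXIN1, AXIN2, LEF1, TCF7, TCF7L1, TCF7L2 and CTNNB1. The rule found 50 of the 18685 genes named in the tables. They comprised 18 ligands, 12 receptors and co-receptors, 4 R-spondins, 9 secreted antagonists and 7 intracellular components. Of these, 37 were listed at every age, and 37 (not all the same genes) reached a mean of 1 FPKM (fragments counted per transcript length and per library size) in at least 1 comparison and were tested. The 13 that were never tested were DKK1, RSPO4, SFRP5, WNT2, WNT2B, WNT3, WNT3A, WNT8A, WNT8B, WNT9B, WNT10A, WNT11B and WNT16.

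Wnt proteins are lipid-modified secreted signals that act over short distances. When a ligand joins a Frizzled receptor and the co-receptor LRP5 or LRP6, the AXIN-containing complex that degrades β-catenin is inhibited, and β-catenin (CTNNB1) enters the nucleus to act with LEF1 and TCF proteins. Ligands such as WNT5A and WNT11 also signal without β-catenin, through cell polarity and calcium routes. R-spondins keep Frizzled receptors at the cell surface, whereas WIF1, FRZB and the SFRP proteins bind Wnt ligands and DKK1 and DKK2 act at the co-receptors. In the mouse, Wnt5a from the ventral diencephalon takes part in shaping the pituitary primordium, and Tcf7l2 limits its growth.

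RNA was sequenced from whole pituitary glands of individual male Ross 708 birds, a commercial meat-type line. Heat-stressed birds were kept in a house warmed from 25 °C to about 35 to 37 °C for 8 h each day from day 21 of age, and controls in a second house held at 25 °C, so that heat and house cannot be told apart. Libraries came from day 21 (15 birds, before any heat), day 22 (13 heat-stressed after 8 h, and 10 control), day 26 (5 heat-stressed after 2 h that day, and 6 control), day 32 (6 heat-stressed after 4 h that day, and 6 control), day 40 (5 heat-stressed and 5 control) and day 42 (17 heat-stressed at the end of the cyclical scheme, and 10 control). The labels name day 40 but the description of the sampling scheme does not. They add the word Week to both groups of day 40, and the length of heat that these birds had is not stated further. Each library is a different bird and is called here by the number in its label.

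All libraries were labelled as pituitary, but markers of the anterior lobe and of myelin differed between day 42 and days 21 to 40. At day 42 the anterior pituitary factors POU1F1 and LHX3 lay at 40.1 to 349 FPKM and 116 to 604 FPKM in the 27 libraries. In the 71 libraries of days 21 to 40, POU1F1 never exceeded 0.431 FPKM and LHX3 had a median of 0.0516 FPKM, while the myelin genes PLLP and BCAS1 lay at 410 to 1681 FPKM and 477 to 1036 FPKM. At day 42 PLLP and BCAS1 were at most 2.53 FPKM and 5.92 FPKM. Age at day 42 and the tissue make-up of the sample cannot be told apart, and in whole-gland RNA fewer cells of a type and less RNA per cell cannot be told apart either. The ranges of library numbers overlapped in part between day 42 and day 22, with 6 and 2 control libraries between 1400 and 1500 and 2 and 2 heat-stressed libraries between 1200 and 1400. No range held control libraries of both day 42 and day 40, so for that pair age and number range cannot be told apart. Sequencing depth, where it could be estimated from low values, fell to 0.106 of the deepest library of its day at day 42 and to between 0.321 and 0.669 at the other days. Heat library 984 at day 42 lists 6926 of 13931 genes at 0, 31 of the members among them. EEF1A1, a translation factor that every cell uses, is listed at 0 in 16 of the 27 day 42 libraries, so a value of 0 is given below as listed at 0 and not as absence.

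Most of the ligand genes were at low levels, and the highest levels belonged to β-catenin, the antagonists and, at day 42, the ligand WNT5A. In control birds of day 42, 47 members were listed, 24 had a median of at least 1 FPKM and 6 of at least 10 FPKM. DKK3 led with a median of 94.7 FPKM, followed by CTNNB1 (94.3 FPKM), WNT5A (66.1 FPKM), SFRP2 (23.4 FPKM) and FZD1 (17.6 FPKM). In control birds of day 22, 45 members were listed, 31 had a median of at least 1 FPKM and 11 of at least 10 FPKM. There CTNNB1 led with 115 FPKM, followed by WIF1 (104 FPKM), FRZB (55.1 FPKM), DKK3 (36.2 FPKM) and SFRP2 (34.6 FPKM). Below them came the receptor FZD9 (17.4 FPKM) and the ligands WNT6 (13.9 FPKM) and WNT11 (13.2 FPKM). The first places at day 42 overlapped, since the libraries of DKK3 ran between 22.3 and 156 FPKM, those of CTNNB1 between 48.9 and 126 FPKM and those of WNT5A between 35.5 and 119 FPKM. At the low end, 8 members (DKK1, WNT2, WNT3, WNT3A, WNT8A, WNT9B, WNT11B and WNT16) stayed under 1 FPKM in every library.

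**Figure D1:**
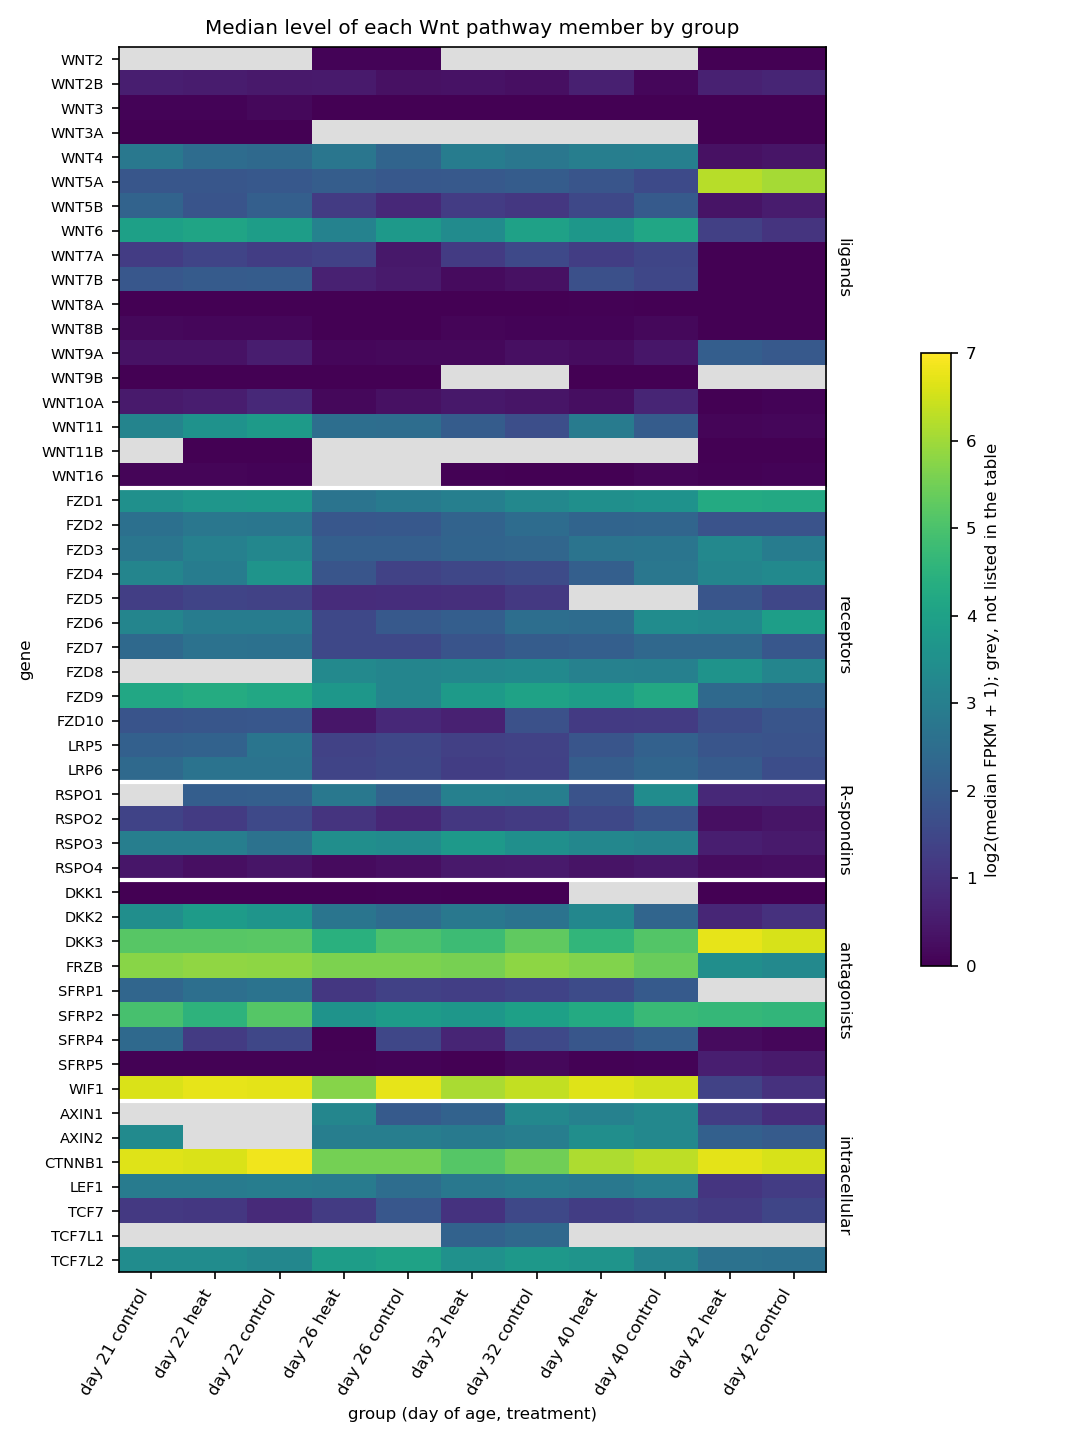
Median level of each member in each of the 11 groups, as log2(median FPKM + 1); rows are genes ordered by role and columns are groups by age with heat-stressed left of control birds. WNT5A and DKK3 are brighter in the 2 day 42 columns than before, WIF1, FRZB, WNT6, WNT11 and the R-spondins are darker, and grey cells mark genes not listed at that age.

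The question of how these genes differ with age was addressed first between the youngest and oldest treated ages, day 42 against day 22, within control birds. Of the 30 members tested, 3 were higher at day 42 (WNT5A, WNT9A and DKK3) and 13 were lower, at an adjusted p under 0.05 in limma (Benjamini-Hochberg over all genes tested) and a change of at least 2-fold. Over all genes this rule called 12.8% higher and 20.2% lower. The members' median difference was -0.66 on the log2(FPKM + 1) scale, on which all log2 differences below are given, against -0.15 over all genes. These medians depended on the scaling and on the libraries. In TPM, where each library's FPKM is rescaled to the same total, they were -1.14 for the members and -0.70 for all genes. They were -0.43 and 0.07 after rescaling to the median gene, -0.43 and 0.13 with the range of library numbers as a term, and -0.08 and 0.16 within libraries 1400 to 1500, so that the median of all genes was above 0 in these settings but not in TPM. The members called numbered 1 higher and 17 lower in TPM, where 6.94% of all genes were higher and 36.6% lower. With the range as a term 4 were higher and 13 lower, where 11.8% of all genes were higher and 12.9% lower, and within libraries 1400 to 1500 6 of 27 were higher and 10 lower, where 13.6% were higher and 13.4% lower. The groups did not overlap for 11 of the 30 members, against 18.6% of all genes. The fold of a gene at low FPKM is understated on this scale, and 9 of the 16 called members had a median under 1 FPKM at day 42 or day 22.

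WNT5A, a non-canonical ligand, had the largest increase among the members. Its level (chr12:7890904-7904787, Gallus gallus version 4 coordinates as in the day 42 table) was lowest at 35.5 FPKM, with a median of 66.1 and a highest value of 119 FPKM, in the 10 control birds of day 42. In the 10 control birds of day 22 it was 1.18, 2.79 and 3.58 FPKM (lowest, median and highest). Every day 42 library lay above every day 22 library, the ratio of mean FPKM was 28.0, and the log2 difference was 4.34 (SE 0.20, limma adjusted p = 1.3e-14).

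Within days 21 to 40 WNT5A stayed low. Its median in control birds was 2.64 FPKM at day 21, 2.79 at day 22, 2.81 at day 26, 3.09 at day 32 and 1.95 FPKM at day 40. The 3 highest values of the 71 libraries of these days were 6.98 FPKM (day 32 control library 1310), 6.55 FPKM (day 32 control library 1309) and 6.54 FPKM (day 22 heat library 1522). The same 3 libraries had the highest LHX3, an anterior lobe factor, at 7.59, 50.6 and 9.75 FPKM. In the other 68, WNT5A was at most 5.02 FPKM and LHX3 at most 5.55 FPKM. The part of tissue make-up in the WNT5A difference was not tested.

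WNT9A, a ligand known mainly from joint formation, was the only other ligand that was higher at day 42. Its values were 0.899, 2.86 and 7.28 FPKM (lowest, median and highest) in day 42 control birds, against 0.0843, 0.481 and 1.65 FPKM in day 22 control birds. The groups overlapped, and the log2 difference was 1.28 (SE 0.21, limma adjusted p = 2.1e-05).

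The other ligands that were tested all fell. WNT11, a non-canonical ligand, was listed at 0 in 2 of the 10 control libraries at day 42 and reached at most 0.255 FPKM, with a median of 0.0989. At day 22 it was 4.23, 13.2 and 17.6 FPKM (lowest, median and highest). No library of the later age came near the lowest of the earlier, and the log2 difference was -3.51 (SE 0.20, limma adjusted p = 3.3e-13). WNT6, a ligand often found in epithelia, had values of 0.362, 1.09 and 5.02 FPKM at day 42, against 3.59, 13.9 and 25.7 FPKM at day 22. These groups overlapped at their edges, and the log2 difference was -2.51 (SE 0.33, limma adjusted p = 7.0e-07). The listed span of WNT6 is 3089 bases in the day 42 table (chr7:21900551-21903639) and 8000 bases in the day 22 table, so its gene model differs between the 2 ages.

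WNT4, a ligand of kidney and gonad development, and WNT5B and WNT7B behaved alike in having separate groups. WNT4 was 0.131, 0.32 and 1.17 FPKM in day 42 control birds and 3.89, 4.21 and 12.7 FPKM in day 22 control birds (log2 difference -2.18, SE 0.18, limma adjusted p = 3.6e-10). WNT5B was 0.0919, 0.439 and 0.62 FPKM at day 42 and 0.82, 3.39 and 7.11 FPKM at day 22 (-1.65, SE 0.21, limma adjusted p = 5.4e-07). WNT7B, a ligand of lung and brain vessel development, was listed at 0 in 9 of the 10 control libraries at day 42, and the other had 0.036 FPKM. At day 22 it was 2.03, 3.09 and 5.18 FPKM, all above the day 42 values (-2.03, SE 0.13, limma adjusted p = 5.6e-12).

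**Figure D2:**
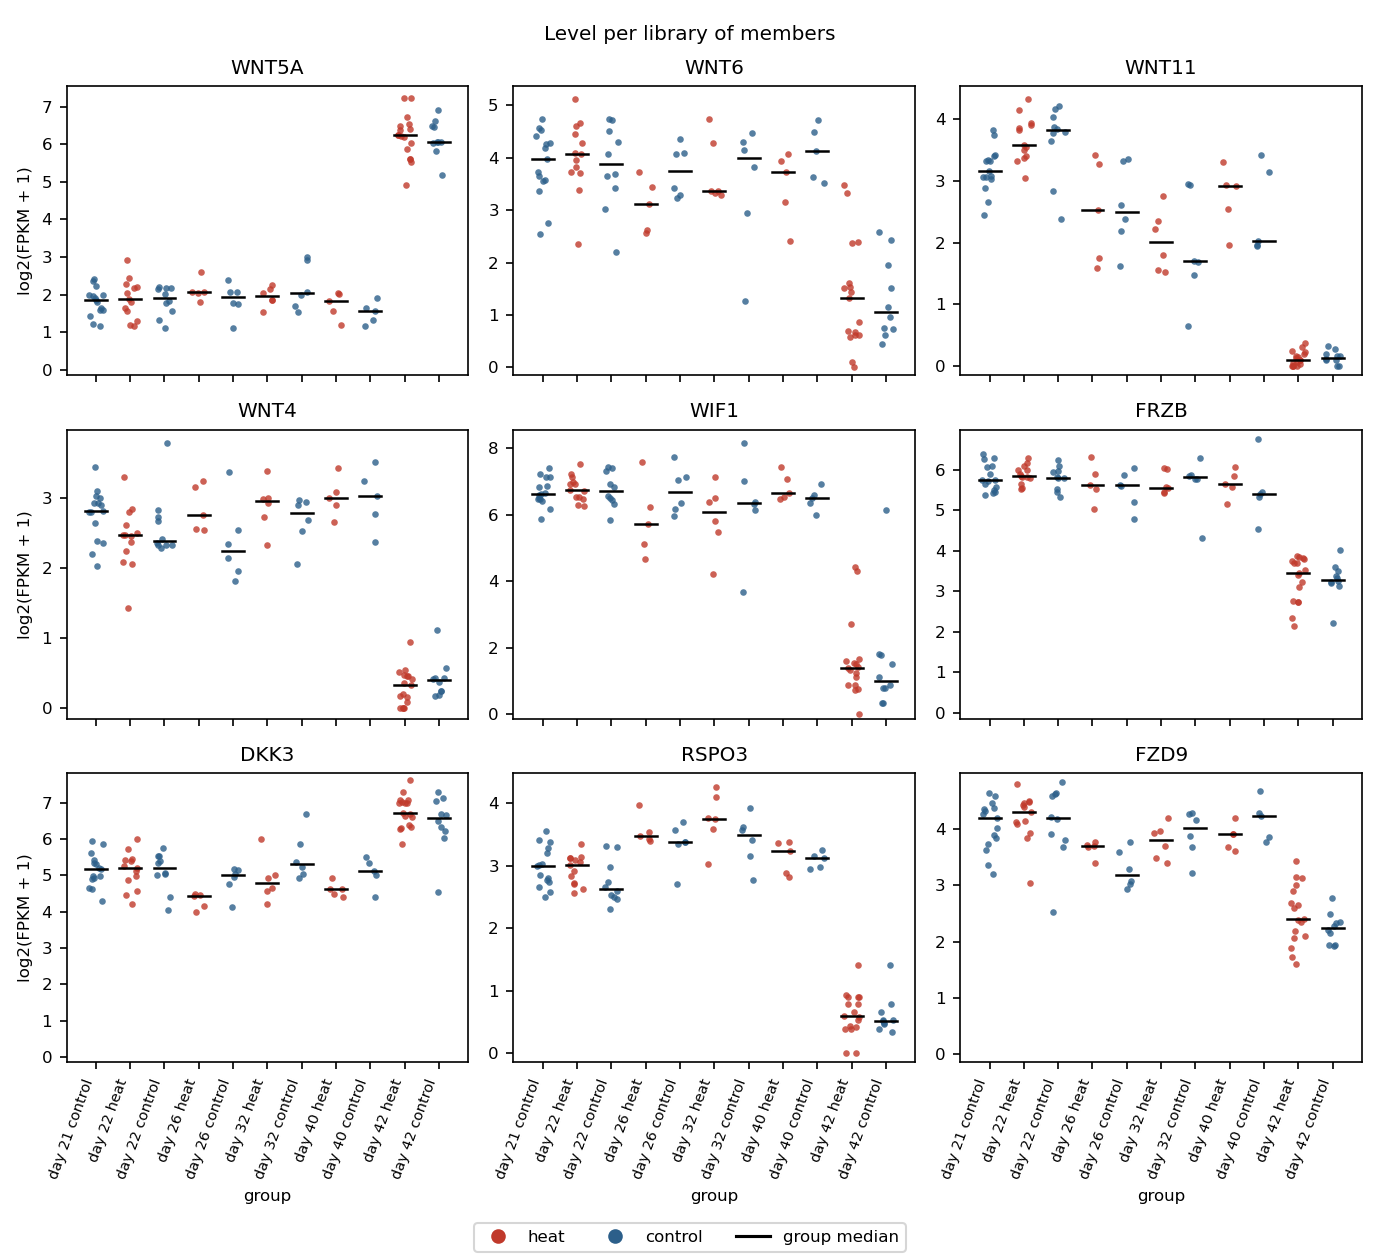
Level of 9 members in every library, as log2(FPKM + 1), with groups by age on the x axis, heat-stressed left of control birds, and a black line at each group median. WNT5A and DKK3 stand higher at day 42 and WIF1, FRZB, WNT6, WNT11, WNT4, RSPO3 and FZD9 lower, in heat-stressed and control birds, with day 42 control library 1420 far above its group in WIF1.

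Few receptors differed between these ages. Of 11 tested, only FZD9 was called, and the median receptor difference was -0.25. FZD9 (chr19:254483-256582, a single listed span at every age) was 2.77, 3.75 and 5.86 FPKM in day 42 control birds and 4.79, 17.4 and 27.6 FPKM in day 22 control birds. The groups overlapped because day 22 library 1552 had 4.79 FPKM while the other 9 lay at 11.9 FPKM or above. The log2 difference was -1.87 (SE 0.23, limma adjusted p = 2.8e-07). FZD6 had a log2 difference of 0.76 (SE 0.30, limma adjusted p = 0.039) and LRP6 of -0.70 (SE 0.23, limma adjusted p = 0.013), both short of 2-fold. The receptor FZD10 was 0.588, 2.60 and 3.51 FPKM at day 42 and 1.48, 2.74 and 4.58 FPKM at day 22 (-0.25, SE 0.20, limma adjusted p = 0.31), with overlapping groups. The listed span of FZD10 is 2244 bases in the day 42 table and 3269 bases in the day 22 table.

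All 3 tested R-spondins fell between these ages, and none of their groups overlapped. RSPO3, the most abundant of them, was 0.261, 0.431 and 1.66 FPKM in day 42 control birds and 3.95, 5.18 and 8.92 FPKM in day 22 control birds (log2 difference -2.13, SE 0.17, limma adjusted p = 1.2e-10). RSPO1 was 0.238, 0.711 and 0.933 FPKM at day 42 and 1.32, 3.37 and 9.94 FPKM at day 22 (-1.68, SE 0.25, limma adjusted p = 5.2e-06). RSPO2 was 0.0185, 0.305 and 0.732 FPKM at day 42 and 1.01, 1.93 and 5.69 FPKM at day 22 (ratio of mean FPKM 7.58 in favour of day 22, limma adjusted p = 2.5e-06). RSPO4 was never above 1.73 FPKM in any library and was not tested.

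Among the antagonists the calls went both ways. WIF1, which sequesters Wnt ligands, was 0.255, 1.01 and 69.7 FPKM in day 42 control birds and 56.8, 104 and 174 FPKM in day 22 control birds. The 69.7 FPKM belonged to library 1420 alone, and the other 9 control libraries of day 42 had at most 2.48 FPKM. The log2 difference was -5.22 (SE 0.51, limma adjusted p = 6.2e-09), and -5.73 (SE 0.25) without library 1420, a comparison added after the data had been seen.

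The day 42 libraries with much WIF1 were also those with most GFAP, the astroglial filament. WIF1 was 69.7 FPKM in control library 1420, 20.4 FPKM in heat library 983 and 18.8 FPKM in heat library 1319, and GFAP was 11.4, 9.54 and 7.53 FPKM in the same 3. In the other 24 libraries of day 42, WIF1 was at most 5.57 FPKM and GFAP at most 3.86 FPKM. GFAP in the 38 libraries of earlier days that list it lay at 362 to 1950 FPKM. The part of astroglial cells in the WIF1 difference was not tested.

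FRZB and DKK2 fell with separate groups. FRZB, a secreted Frizzled-related protein, was 3.62, 8.78 and 15.4 FPKM in day 42 control birds and 39.3, 55.1 and 74.8 FPKM in day 22 control birds (log2 difference -2.51, SE 0.19, limma adjusted p = 6.0e-11). DKK2, which binds the LRP co-receptors, was 0.23, 0.993 and 2.49 FPKM at day 42 and 3.68, 11.5 and 22.3 FPKM at day 22 (-2.59, SE 0.28, limma adjusted p = 2.6e-08). The summed level of the fibroblast and meninges markers COL1A2, COL3A1, LUM, DCN and PDGFRA (5 listed of a list of 6) moved the same way, with 15.7, 108 and 197 FPKM (lowest, median and highest) in day 42 control birds and 225, 801 and 995 FPKM in day 22 control birds. Its part in these differences was not tested.

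DKK3 was the antagonist that rose. It is a divergent family member, since it does not act on the LRP co-receptors as DKK1 and DKK2 do. It was 22.3, 94.7 and 156 FPKM in day 42 control birds, against 15.4, 36.2 and 52.7 FPKM in day 22 control birds. Only day 42 library 1012, at 22.3 FPKM, fell within the day 22 range, as the next lowest had 64.0 FPKM. Library 1012 also had the lowest FPKM total over all genes at day 42 (281671, median 457320). The log2 difference was 1.33 (SE 0.29, limma adjusted p = 0.0004). In TPM neither DKK3 (0.68) nor WNT9A (0.89) reached 2-fold, and WNT5A was then the only member called higher. SFRP2 did not pass the test, with 14.1, 23.4 and 30.3 FPKM at day 42 and 13.6, 34.6 and 62.2 FPKM at day 22 (-0.49, SE 0.24, limma adjusted p = 0.097).

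Inside the cell, LEF1 was the only member called, and CTNNB1 did not pass the test. TCF7L2 was lower but short of 2-fold in control birds (-0.74, SE 0.20, limma adjusted p = 0.0037) and in heat-stressed birds (-0.57, SE 0.15, limma adjusted p = 0.0011). In TPM it was called lower in both (-1.29 and -1.13). LEF1, the transcription factor that pairs with β-catenin, was 0.326, 1.36 and 3.45 FPKM in day 42 control birds and 3.79, 6.87 and 8.39 FPKM in day 22 control birds. The groups were separate, and the log2 difference was -1.65 (SE 0.20, limma adjusted p = 1.5e-07). CTNNB1 was 48.9, 94.3 and 126 FPKM at day 42 and 61.0, 115 and 142 FPKM at day 22, with a log2 difference of -0.21 (95% interval -0.60 to 0.18). CTNNB1 overlaps ULK4 and LRP5 overlaps LOC101750985 in the files, and whether strand was used in counting is not stated.

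**Figure D3:**
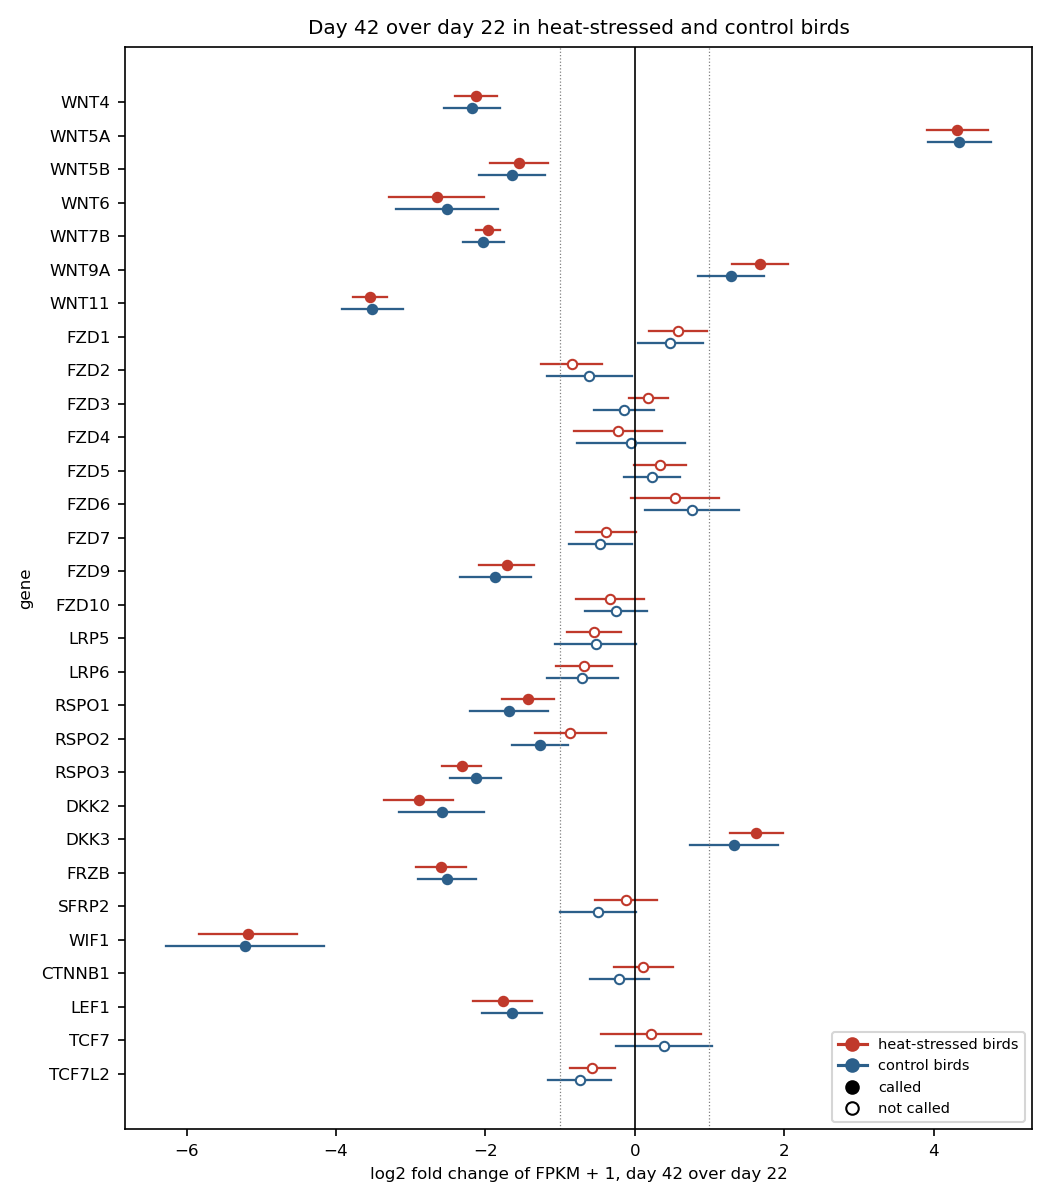
Log2 difference of FPKM + 1 between day 42 and day 22 for each member tested in both treatments, with heat-stressed and control birds as separate points, bars of the 95% interval, filled points for called members and open points for the others. WNT5A lies at 4.32 in heat-stressed and 4.34 in control birds and WIF1 at -5.18 and -5.22, while FZD9 is the only receptor with filled points.

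Heat-stressed birds gave the same picture between day 42 and day 22. Of the 30 members tested, 3 were higher and 12 lower, where 12.3% of all genes were higher and 20.1% lower, and 8 had separate groups, against 16.4% of all genes. All 15 had been called in the same direction in control birds, where they made up 93.8% of the 16 calls. This overlap was not computed over all genes, so whether the members differ from other genes in it is not known. WNT5A was 29.4, 75.1 and 151 FPKM in the 17 heat-stressed birds of day 42 and 1.22, 2.66 and 6.54 FPKM in the 13 of day 22 (4.32, SE 0.20, limma adjusted p = 4.3e-19). The remaining call of control birds, RSPO2, fell short of 2-fold here (-0.86, SE 0.24). Its highest heat-stressed value at day 42, 8.22 FPKM, came from library 984, and the next was 1.11 FPKM.

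The other called members had similar sizes in heat-stressed birds. WIF1 was listed at 0 in 1 library and had a median of 1.60 and a highest value of 20.4 FPKM at day 42, against 75.4, 106 and 184 FPKM at day 22 (-5.18, SE 0.32, limma adjusted p = 7.6e-16). FRZB was 3.46, 9.90 and 13.7 FPKM at day 42 and 45.2, 56.5 and 76.8 FPKM at day 22 (-2.59, SE 0.17, limma adjusted p = 1.6e-15). DKK3 was 56.9, 105 and 197 FPKM at day 42 and 17.5, 35.6 and 63.4 FPKM at day 22 (1.63, SE 0.17, limma adjusted p = 5.2e-10). Both FRZB and WIF1 had separate groups, and DKK3 overlapped slightly. In TPM the DKK3 difference was 0.995 and short of 2-fold, and 2 members were higher and 17 lower, where 7.54% of all genes were higher and 35.8% lower.

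The log2 differences of the rest in heat-stressed birds were 1.67 for WNT9A, -1.43 for RSPO1, -1.55 for WNT5B, -1.72 for FZD9, -1.77 for LEF1, -1.96 for WNT7B, -2.13 for WNT4, -2.32 for RSPO3, -2.65 for WNT6, -2.90 for DKK2 and -3.55 for WNT11. With the range of library numbers as a term, RSPO1 (-0.92) and WNT5B (-0.93) no longer passed, and within libraries 1200 to 1400, with 2 birds at each age, DKK2 (-2.59, limma adjusted p = 0.076) did not pass either. Whether the heat effect itself differed between day 42 and day 22 was tested with an interaction term in limma. None of the 30 members passed, and 0% of all 8288 genes were called. No member had an unadjusted p under 0.05, where 159 of all genes did.

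These differences changed which gene made up most of each role. Among the 13 ligands listed at every age, WNT5A contributed a median of 92.6% of the summed FPKM in heat-stressed birds and 92.9% in control birds of day 42, against 5.85% in heat-stressed and 5.81% in control birds of day 22. At day 22 the largest contributions in control birds were WNT6 (33.1%), WNT11 (25.6%) and WNT4 (11.7%). The summed ligand level itself had a median of 81.5 FPKM in heat-stressed and 74.3 FPKM in control birds of day 42, and of 42.5 FPKM and 49.2 FPKM in those of day 22. The FPKM total over all listed genes was also higher, with a median of 457320 in the 27 libraries of day 42 and 267909 in the 23 of day 22. The lists summed differ, with 13931 genes at day 42 and 14174 at day 22. The anterior lobe hormones GH, PRL, CGA, TSHB, FSHB and POMC had a summed median of 156260 FPKM in heat-stressed and 137990 FPKM in control birds of day 42. At day 22 it was 29.9 FPKM and 21.7 FPKM. The part of this difference between the totals in the summed ligand level was not tested. The share of WNT5A in heat library 984 of day 42 is 100%, since every other ligand is listed at 0 there.

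The antagonists changed over in the same manner. DKK3 made up a median of 74.8% of the summed FPKM of 7 antagonists in heat-stressed and 71.5% in control birds of day 42, against 13.6% in heat-stressed and 14.9% in control birds of day 22. WIF1 made up 1.07% and 0.913% at day 42, against 44.4% and 44.3% at day 22, in heat-stressed and control birds. The summed antagonist level had a median of 132 FPKM in day 42 control birds and 264 FPKM in day 22 control birds. The 10 receptors were more even. FZD9 took 5.20% in day 42 control birds and 23.2% in day 22 control birds, and FZD1, picked for description after its values were seen, took 25.2% and 14.5%. These shares are descriptions and were not tested.

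**Figure D4:**
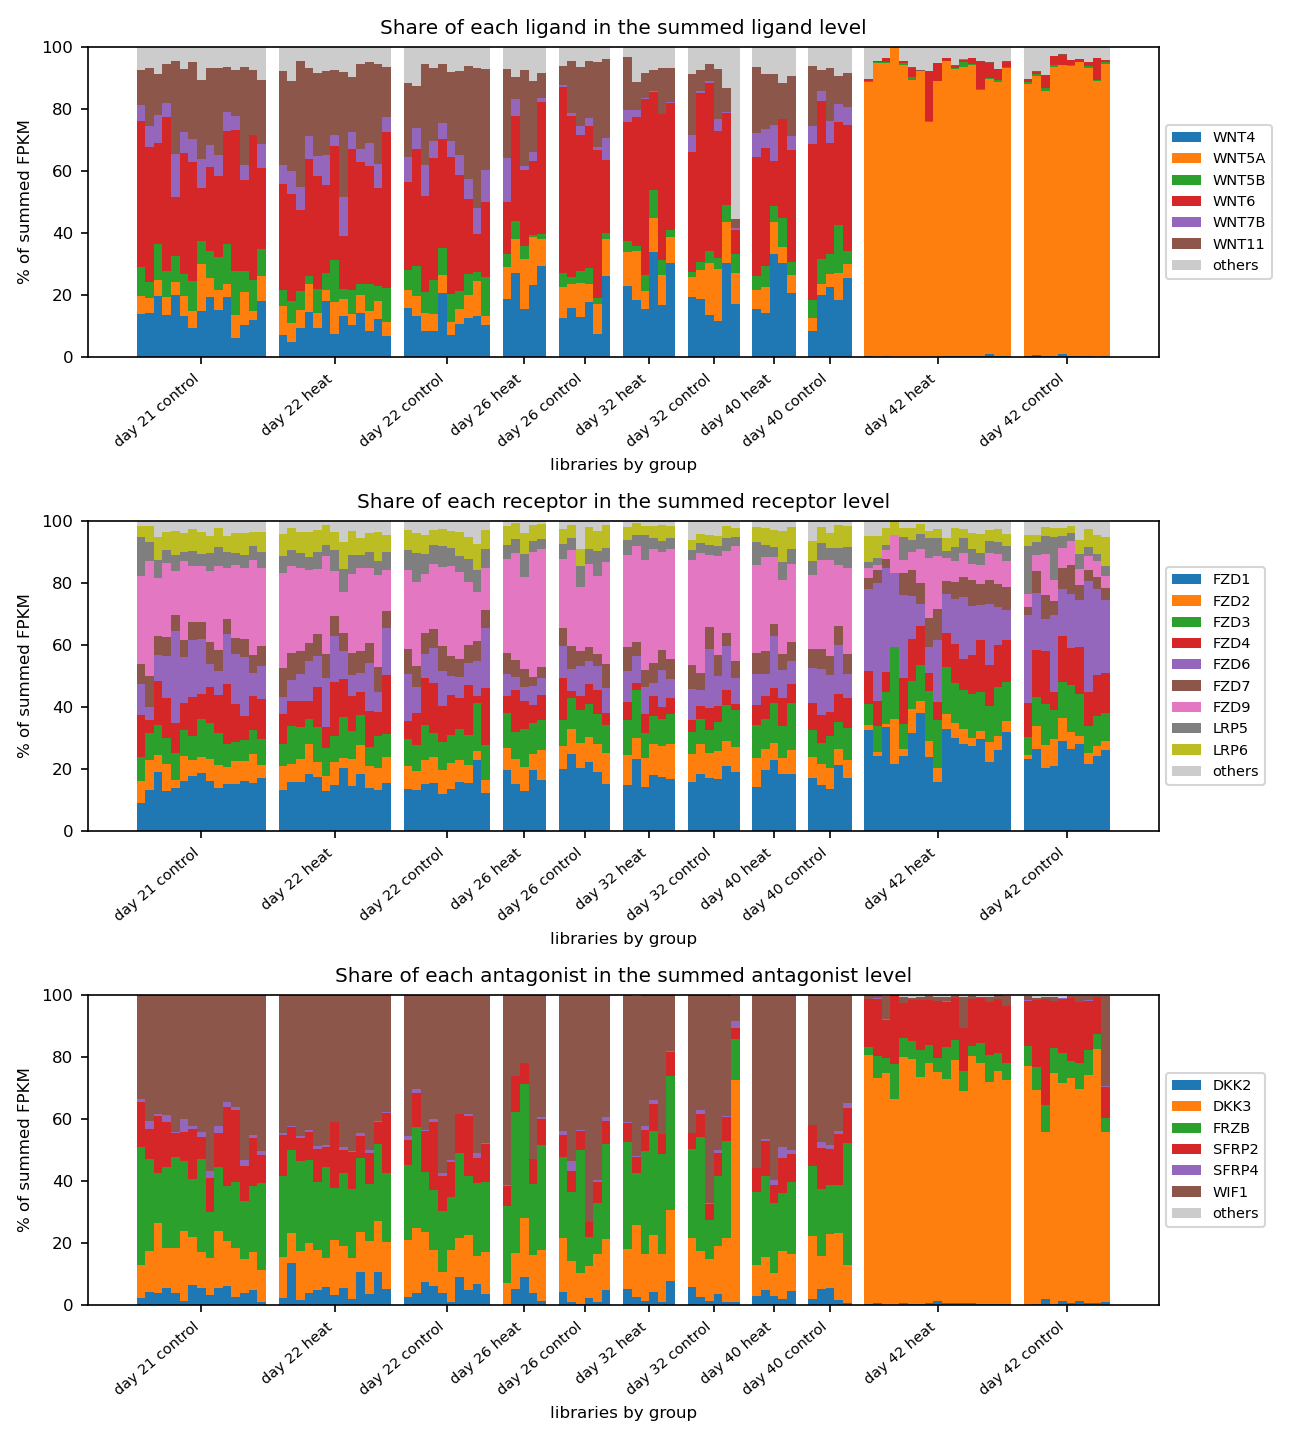
Share of each gene in the summed FPKM of the 13 ligands, 10 receptors and 7 antagonists listed at every age, as a percentage in each library, with libraries grouped by age and heat-stressed left of control birds. WNT5A fills 75.8% to 100% of the ligand bar in the 27 day 42 libraries and DKK3 fills 53.9% to 82.0% of the antagonist bar. At the earlier ages several genes share most bars. DKK3 still fills 71.5% of the antagonist bar in day 32 control library 1315, and WIF1 fills 73.0% in day 26 control library 1512.

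Day 40, although only 2 days younger than day 42, resembled the earlier ages. Between day 42 and day 40 control birds, 3 members of 31 tested were higher and 14 lower, where 11.2% of all genes were higher and 17.6% lower. The groups were separate for 13 members, against 21.3% of all genes, and the members' median was -0.51 against -0.09 over all genes. In TPM 2 were higher and 15 lower, where 7.27% of all genes were higher and 31.4% lower, and the medians were -0.98 and -0.59. WNT5A was 35.5 to 119 FPKM in the 10 control birds of day 42 and 2.11, 1.49, 1.95, 2.73 and 1.25 FPKM in the 5 of day 40. The ratio of mean FPKM was 39.2 and the log2 difference 4.66 (SE 0.26, limma adjusted p = 6.6e-11). WNT9A was 0.899 to 7.28 FPKM at day 42, above the 0.377, 0.334, 0.342, 0.05 and 0.0997 FPKM of day 40 (1.61, SE 0.26, limma adjusted p = 6.5e-05).

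DKK3 also rose between these ages. It was 22.3, 94.7 and 156 FPKM in day 42 control birds and 39.4, 20.3, 44.2, 31.4 and 33.9 FPKM in day 40 control birds (1.37, SE 0.36, limma adjusted p = 0.0054), and in TPM the difference was 0.81 and short of 2-fold. WIF1 was 0.255, 1.01 and 69.7 FPKM at day 42 and 81.2, 90.4, 121, 63.3 and 95.8 FPKM at day 40 (-4.94, SE 0.68, limma adjusted p = 1.2e-05). All but library 1420 of day 42 lay under the lowest day 40 value.

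The ligands and R-spondins that fell between these ages did so with separate groups. RSPO3 was 0.261 to 1.66 FPKM in day 42 control birds and 7.93, 6.86, 7.71, 6.67 and 8.45 FPKM in day 40 control birds (-2.48, SE 0.19, limma adjusted p = 4.7e-09). WNT4 was 0.131 to 1.17 FPKM at day 42 and 4.16, 8.45, 10.4, 5.82 and 7.12 FPKM at day 40 (-2.56, SE 0.21, limma adjusted p = 1.2e-08). WNT6 was 0.362 to 5.02 FPKM at day 42 and 25.2, 21.5, 16.5, 10.4 and 11.4 FPKM at day 40 (-2.78, SE 0.36, limma adjusted p = 6.0e-06). The others that fell were WNT11 (-2.36), RSPO1 (-2.32), FRZB (-2.22), FZD9 (-1.93), LEF1 (-1.70), DKK2 (-1.61), WNT5B (-1.48), RSPO2 (-1.44), AXIN1 (-1.42) and AXIN2 (-1.33).

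AXIN2, itself a transcriptional target of β-catenin signalling and a brake on it, was 0.953, 3.03 and 5.60 FPKM in day 42 control birds and 10.4, 7.75, 11.4, 7.27 and 8.70 FPKM in day 40 control birds. The groups were separate (-1.33, SE 0.26, limma adjusted p = 0.00042). It is not listed in the day 22 table, and in the 15 birds of day 21 it was 6.64, 9.12 and 12.6 FPKM. AXIN1, the scaffold of the degradation complex, is uncertain. In the 60 libraries of days 26 to 42 it was either at most 1.76 FPKM (27 libraries) or between 4.46 and 11.1 FPKM (33 libraries), with none between. The low libraries numbered 7 of 10 in control birds of day 42 and 1 of 5 in those of day 40. Its call (limma adjusted p = 0.035) was lost without library 1420 of day 42 (adjusted p = 0.053) and without any of the 4 high libraries of day 40 (adjusted p 0.077 to 0.090). The day 32 table lists AXIN1 at chr14:12199019-12231049, and the tables of days 26, 40 and 42 at chr14:12146182-12184487, which does not overlap it.

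Among the earlier ages, day 26 stood below day 22 for many members in control birds, in a comparison that shares the day 22 libraries with those of days 32, 40 and 42. None of 32 members was higher and 9 were lower, where 1.96% of all genes were higher and 9.31% lower. The members' median difference was -0.74 and that of all genes -0.35, so the median gene also lay lower at day 26. After rescaling to the median gene the members' median was -0.46. All 11 receptors tested had a negative log2 difference, of which FZD4 (-1.66), FZD6 (-1.13), LRP5 and FZD7 (-1.03) were called. FZD3 (-0.97), short of 2-fold, was the only member with separate groups, against 11.6% of all genes.

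FZD4, a receptor of retinal vessel growth that also responds to NDP, was 0.771, 1.62 and 5.26 FPKM in day 26 control birds and 0.700, 11.4 and 18.5 FPKM in day 22 control birds. The groups overlapped through 2 low day 22 libraries, 1552 (0.700 FPKM) and 1432 (2.80 FPKM), and the difference passed (limma adjusted p = 0.007). The listed span of FZD4 is 4451 bases at day 22 and 5890 bases at day 26. FZD6 was 1.97, 2.88 and 4.06 FPKM at day 26 and 3.48, 6.63 and 17.2 FPKM at day 22 (limma adjusted p = 0.002). LRP5 was 1.24, 1.83 and 2.45 FPKM at day 26 and 2.16, 5.53 and 7.18 FPKM at day 22 (ratio of mean FPKM 2.84 in favour of day 22, limma adjusted p = 0.00022). FZD7 was 1.09, 1.86 and 2.94 FPKM at day 26 and 1.91, 5.12 and 7.37 FPKM at day 22 (limma adjusted p = 0.00097). For FZD6, LRP5 and FZD7 the upper day 26 values overlapped the lower day 22 values, and FZD7 fell short of 2-fold without day 26 library 1078 (-0.998), 1512 (-0.96) or 1513 (-0.94).

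Of the ligands, WNT7B, WNT5B and WNT11 fell at day 26. WNT7B was 0.182, 0.42 and 2.47 FPKM in day 26 control birds and 2.03, 3.09 and 5.18 FPKM in day 22 control birds (-1.35, SE 0.22, limma adjusted p = 0.00014). WNT5B was 0.678, 0.754 and 1.47 FPKM at day 26 and 0.82, 3.39 and 7.11 FPKM at day 22 (-1.23, SE 0.26, limma adjusted p = 0.0012). WNT11 was 2.07, 4.65 and 9.24 FPKM at day 26 and 4.23, 13.2 and 17.6 FPKM at day 22 (-1.08, SE 0.30, limma adjusted p = 0.0071). Each pair of groups overlapped, and WNT11 fell short of 2-fold without day 26 library 845 (-0.88) or 1512 (-0.998) and with the range of library numbers as a term (-0.96).

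Of the antagonists, DKK2 was 0.442, 4.53 and 7.96 FPKM in day 26 control birds and 3.68, 11.5 and 22.3 FPKM in day 22 control birds (-1.37, SE 0.42, limma adjusted p = 0.013). SFRP2 was 10.2, 13.4 and 17.8 FPKM at day 26 and 13.6, 34.6 and 62.2 FPKM at day 22 (-1.14, SE 0.28, limma adjusted p = 0.0031). DKK2 did not pass with the range of library numbers as a term (-1.19, limma adjusted p = 0.087). WIF1 had a log2 difference of -0.03 and WNT5A of 0.03. When every library was rescaled to its median gene, only FZD4 and WNT7B stayed lower, and TCF7 (1.14) and TCF7L2 (1.02), the nuclear partners of β-catenin, were called higher. The endothelial markers CDH5, KDR, TEK and CLDN5 (4 listed of a list of 5) were summed. Their level was 23.0, 26.9 and 29.6 FPKM (lowest, median and highest) at day 26 and 25.9, 53.8 and 66.7 FPKM at day 22. The neuron markers SNAP25, SYT1, NEFL, NEFM and GAD1 (5 listed of 6) had summed medians of 11.3 and 23.1 FPKM at these ages. The fibroblast and meninges markers had 480 and 801 FPKM, and the 6 anterior lobe hormones 21.6 and 21.7 FPKM. All these lists overlapped between the ages. The part of these markers in the differences was not tested.

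Day 32 gave 9 lower and 0 higher of 32 members against the same day 22 libraries, where 5.84% of all genes were lower and 2.05% higher. The members' median was -0.38 and that of all genes -0.24, and the members' median was -0.13 after rescaling to the median gene. WNT7B, LRP5 and LRP6 had separate groups, against 9.00% of all genes. LRP6 was 1.01, 1.54 and 1.86 FPKM in day 32 control birds and 2.57, 5.30 and 6.76 FPKM in day 22 control birds (-1.20, SE 0.17, limma adjusted p = 7.6e-05). LRP5 was 0.872, 1.61 and 1.98 FPKM at day 32 and 2.16, 5.53 and 7.18 FPKM at day 22 (-1.26, SE 0.19, limma adjusted p = 0.00012). Both co-receptors were lower in every day 32 library than in any day 22 library. The summed level of the endothelial markers CDH5, KDR, TEK and CLDN5 (4 listed of a list of 5) was 23.1, 29.2 and 41.4 FPKM (lowest, median and highest) at day 32 and 25.9, 53.8 and 66.7 FPKM at day 22, and its part in the day 32 differences was not tested.

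WNT11 had the largest difference at day 32, with 0.562, 2.23 and 6.72 FPKM in day 32 control birds and 4.23, 13.2 and 17.6 FPKM in day 22 control birds (-1.76, SE 0.34, limma adjusted p = 0.00086). WNT7B was 0.0917, 0.239 and 1.84 FPKM at day 32 (-1.39, SE 0.23, limma adjusted p = 0.00024). CTNNB1 was 35.9, 43.5 and 61.2 FPKM at day 32 and 61.0, 115 and 142 FPKM at day 22 (-1.17, SE 0.18, limma adjusted p = 0.00016), with ranges that met at their ends. FZD4, SFRP2 (-1.17), WNT5B (-1.06) and DKK2 (-1.03) were the others called. DKK2 did not pass without day 32 library 1308, 1309, 1314 or 1315 (limma adjusted p 0.055 to 0.11), SFRP2 fell short of 2-fold without library 1315 (-0.94) and WNT5B without library 1277 (-0.96). Rescaled to the median gene, 4 of the 9 passed (WNT11, WNT7B, LRP5 and FZD4). LRP6 (-0.98), SFRP2 (-0.87), CTNNB1 (-0.85), WNT5B (-0.85) and DKK2 (-0.77) then fell short of 2-fold. In the day 32 groups all library numbers lie between 1200 and 1400, a range that holds no day 22 control library, so that no value within a range could be had.

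Day 40 and day 21 gave no calls. Between day 40 and day 22 control birds, none of 31 members passed, where 0.188% of all genes did. An unadjusted p under 0.05 was reached by 6 members and by 1372 of all 7967 genes. No member had separate groups, against 1.12% of all genes. WNT11 came closest, with 9.67, 2.86, 7.82, 2.90 and 3.07 FPKM at day 40 and 4.23, 13.2 and 17.6 FPKM at day 22 (-1.16, SE 0.32, limma adjusted p = 0.090). It passed at -1.39 without day 40 library 1279 (limma adjusted p = 0.049) and at -1.65 with the range of library numbers as a term (limma adjusted p = 0.0019). Between day 22 and day 21 control birds, none of 30 members passed in limma, where 0.0643% of all genes did. Here 4 members had an unadjusted p under 0.05, namely SFRP4 (-0.82), WNT11 (0.47), LRP5 (0.39) and FZD3 (0.27). The same held for 827 of all 7781 genes.

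No member differed detectably between heat-stressed and control birds on any day. The members tested numbered 32, 32, 35, 34 and 25 at days 22, 26, 32, 40 and 42, and none passed limma's adjusted p of 0.05. Over all genes the same test called 0.133% at day 22, 0.584% at day 26 and 0% on the later days. At an unadjusted p under 0.05 there were 0, 6, 2, 5 and 0 members on the same days. Over all genes there were 407 of 8256, 1245 of 9079, 609 of 10282, 416 of 8831 and 242 of 9231. The 95% interval of the log2 difference lay within -1 to 1 for 32, 22, 25, 26 and 23 members at days 22, 26, 32, 40 and 42, so that on this scale a 2-fold change was outside the interval for all members tested at day 22 but not for all at the other days. WNT5A at day 42 had a heat difference of 0.03 (95% interval -0.42 to 0.49).

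**Figure D5:**
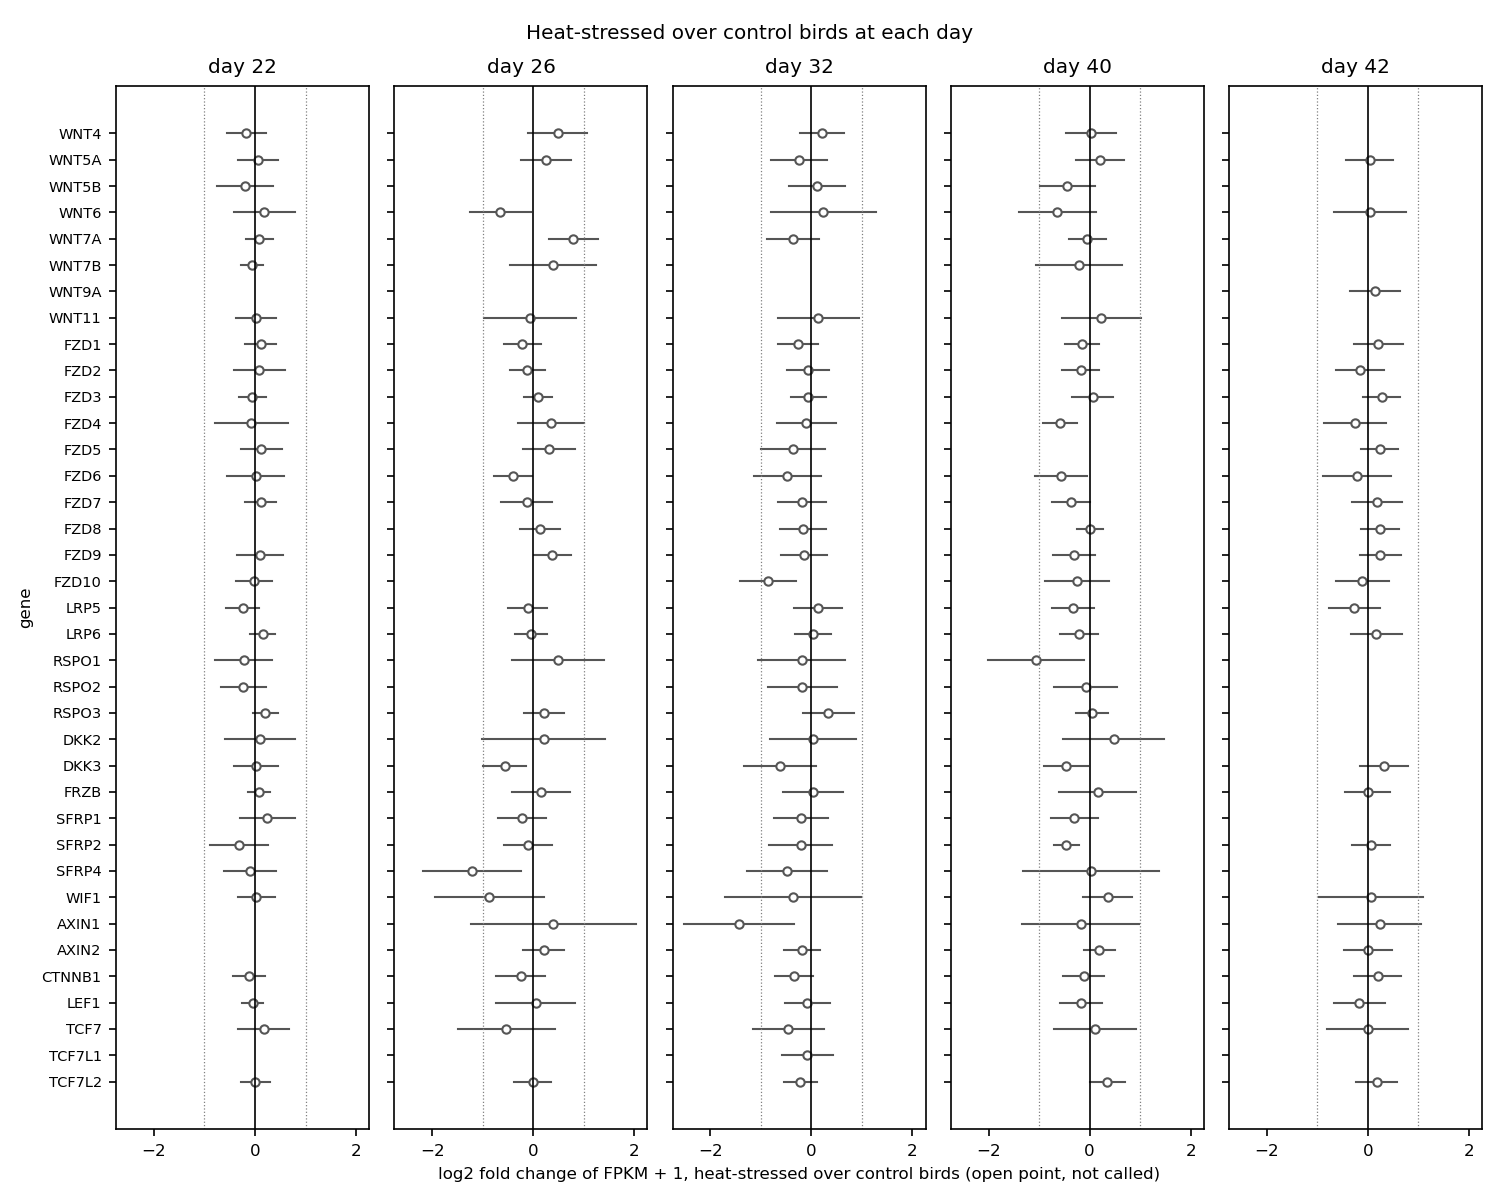
Log2 difference of FPKM + 1 between heat-stressed and control birds at each of 5 days, 1 panel a day, with genes on the y axis, bars of the 95% interval and dotted lines at -1 and 1. All points are open, since no member passed the test at any day, and the intervals are narrowest at day 22.

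At day 26 the smallest adjusted p among members was that of WNT7A, a ligand of limb patterning and synapse formation, named here after its values were seen. It was 1.07, 2.32, 1.57, 1.89 and 1.42 FPKM in heat-stressed birds and 0.165, 0.363 and 1.30 FPKM (lowest, median and highest) in control birds. Heat library 1312 was the only heat-stressed library inside the control range. The ratio of mean FPKM was 2.94 and the log2 difference 0.80 (SE 0.22, limma adjusted p = 0.15). No member had separate groups at this day, against 3.12% of all genes, nor at day 22 (0.0242%), day 32 (0.301%) or day 42 (0%).

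At day 32 FZD10 was 0.285, 0.548 and 0.794 FPKM in heat-stressed birds and 0.556, 2.31 and 3.29 FPKM in control birds. The groups overlapped, and the log2 difference of -0.86 (SE 0.26) did not pass (limma adjusted p = 0.75). At day 40, 2 of the 34 members had separate groups, against 0.725% of all genes. FZD4 was 3.15, 4.33, 2.45, 4.47 and 3.35 FPKM in heat-stressed birds and 4.96, 5.87, 6.19, 5.60 and 6.31 FPKM in control birds (-0.59, SE 0.15, limma adjusted p = 0.93). SFRP2 was 18.6, 21.4, 17.0, 20.9 and 18.5 FPKM in heat-stressed birds and 25.6, 25.2, 29.3, 23.6 and 31.4 FPKM in control birds (-0.46, SE 0.11, limma adjusted p = 0.93). Every heat-stressed bird lay below every control bird for both genes, but neither difference held after adjustment over all genes.

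RSPO1 at day 40 was 2.45, 3.18, 1.67, 8.17 and 1.36 FPKM in heat-stressed birds and 2.85, 11.0, 4.71, 11.1 and 9.49 FPKM in control birds (-1.06, SE 0.43, limma adjusted p = 0.93), with overlapping groups. Heat library 1575 (8.17 FPKM) and the heat library at 3.18 FPKM lay within the control range of 2.85 to 11.1 FPKM. DKK3 was 23.5, 20.3, 21.4, 29.2 and 23.7 FPKM in heat-stressed and 39.4, 20.3, 44.2, 31.4 and 33.9 FPKM in control birds (-0.47, SE 0.19, limma adjusted p = 0.93).

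Further genes of the pathway were read from a list of 68, covering Wnt secretion, R-spondin receptors, co-factors, planar polarity, transduction and nuclear partners. Between day 42 and day 22 control birds, 40 were tested, 3 were higher and 10 lower, where 12.8% of all genes were higher and 20.2% lower, and their median was -0.26 against -0.15 over all genes. In TPM 0 were higher and 18 lower, where 6.94% of all genes were higher and 36.6% lower, and with the range of library numbers as a term 3 were higher and 6 lower, where 11.8% and 12.9% were. The largest differences were NDP (-5.01), the ligand of FZD4 that is not a Wnt, TNFRSF19 (-2.96), APCDD1 (-2.76), a membrane inhibitor, and NKD1 (-2.67), a feedback inhibitor. In heat-stressed birds 3 of 41 were higher and 9 lower, where 12.3% of all genes were higher and 20.1% lower, with the same 4 genes as the largest (NDP -5.05, TNFRSF19 -3.10, APCDD1 -3.01 and NKD1 -2.69). Between day 42 and day 40 control birds, 2 of 41 were higher and 9 lower, where 11.2% of all genes were higher and 17.6% lower. Between day 26 and day 22, 1 of 41 was higher (CCND1, 1.01) and 10 lower, with CSNK1E (-1.43) the largest, where 1.96% of all genes were higher and 9.31% lower. Between day 32 and day 22, 1 of 40 was lower (TNFRSF19, -1.45), where 5.84% of all genes were lower. No gene of the list was called between days 40 and 22, between days 22 and 21, or between heat-stressed and control birds at any day.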

How the data were processed

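The authors aligned the reads of each library with Bowtie and TopHat and estimated FPKM with Cufflinks on the Gallus gallus version 4 assembly, and deposited 1 table of FPKM values for each of the 6 ages. Tool versions are not given in the sources used here. Libraries were made with a strand-marking kit, and whether strand was used in counting is not stated. FPKM divides by transcript length and by mapped reads. This division is the only scale common to the 6 tables, which were joined by gene symbol, and the listed span of some genes differs between them. Deposited columns matched 98 of 100 labelled samples. 3 columns of the day 22 table matched no sample and were left out, and 2 heat-stressed birds of day 42 had no column.

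Comparisons were made on log2(FPKM + 1) with limma's trend method (version 3.58.1, R 4.3.3) on the compared libraries alone, over genes averaging 1 FPKM or more, with Benjamini-Hochberg adjustment over all of them. Heat calls needed an adjusted p under 0.05, and calls between ages also a change of at least 2-fold. Tables and figures were made with Python 3.11.15, numpy 2.4.6, pandas 2.3.3 and matplotlib 3.10.9. The procedure was tested on simulated data. Per-library values are given for members called in at least 1 comparison and for FZD10, WNT5A, WNT6, WNT7B and WNT11. Single values of WNT7A, WNT8B and RSPO4 are also given, chosen after they were seen. Other members are given by counts and ranges, and up to 4 called genes of the further list are named in a comparison. The members and gene lists were chosen with earlier results of these data known. Alternatives were a smaller pseudocount (0.1), all genes without a filter, rescaling to the median gene, TPM, no minimum fold, the range of library numbers as a term, libraries of a single range, and leaving out each replicate in groups of up to 6. Each library is a separate bird. FPKM values carry no read counts, so no counting interval is given.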

Additional observations from a re-analysis of the deposited data

Results flagged for a closer look

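The members called in at least 1 comparison, and FZD10, were checked in groups of 4 to 10 libraries. WNT7A, WNT8B and RSPO4 were not checked. Only groups in which the gene had a median of at least 1 FPKM were used. A highest or lowest library was flagged when separated from the rest by more than Dixon's 95% limit on the gap over the range. Of 181 such groups over 26 members, 17 had a library that stood apart. Chance flags about 1 group in 20.

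At day 42, control library 1420 had 69.7 FPKM of WIF1, against 0.255 to 2.48 FPKM in the other control libraries. Control library 1012 was low in DKK3 (22.3 FPKM, others 64.0 to 156 FPKM) and in FRZB (3.62 FPKM, others 7.79 to 15.4 FPKM). It was also the lowest of the 27 day 42 libraries in FPKM total (281671, median 457320). The genes at 1 FPKM or more were also fewest there (6709, highest 9481).

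At day 40, AXIN1 was 1.23 FPKM in heat library 1515 (others 6.69 to 9.16 FPKM) and 1.40 FPKM in control library 1516 (others 8.41 to 10.3 FPKM). Heat library 1575 had 3.68 FPKM of DKK2 (others 7.32 to 9.27 FPKM), and heat library 1574 had 8.61 FPKM of FZD6 (others 4.04 to 4.89 FPKM).

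At day 32, RSPO1 was 0.799 FPKM in heat library 1276 (others 5.38 to 12.6 FPKM), LRP5 was 4.09 FPKM in heat library 1304 (others 1.04 to 1.62 FPKM), and LRP6 was 2.42 FPKM in heat library 1306 (others 1.13 to 1.53 FPKM). FRZB was 18.9 FPKM in control library 1315 (others 53.6 to 77.6 FPKM).

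At day 26, heat library 1431 stood apart in FZD9 (9.51 FPKM, others 11.9 to 12.7 FPKM) and in RSPO3 (14.7 FPKM, others 9.53 to 10.6 FPKM). LRP6 was 2.84 FPKM in control library 1514 (others 1.54 to 1.95 FPKM), and RSPO3 was 5.55 FPKM in control library 1513 (others 9.21 to 11.9 FPKM).

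At day 22, FZD9 was 4.79 FPKM in control library 1552 (others 11.9 to 27.6 FPKM), and WNT4 was 12.7 FPKM in control library 1525 (others 3.89 to 6.10 FPKM).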

How the results depend on the processing

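Between day 42 and the earlier ages, WNT5A stayed higher and WIF1, WNT11, WNT6, FRZB, WNT4, RSPO3 and FZD9 lower under every alternative run. In day 42 over day 22 control birds the members called higher numbered 1 in TPM (6.94% of all genes) and 6 within library numbers 1400 to 1500 (FZD1, FZD4 and FZD6 added; 13.6% of all genes), against 3, and without day 42 library 1420 there were 3 higher and 14 lower. In heat-stressed birds 5 were higher within library numbers 1200 to 1400 (18.4% of all genes), 2 were higher and 17 lower in TPM, and 3 higher and 12 lower without library 984. Both omissions were chosen after seeing the data. For day 42 over day 40, leaving out 1 library gave 3 higher and 12 to 14 lower. For day 26 over day 22, 14 were lower with a pseudocount of 0.1, where 15.6% of all genes were lower. After rescaling to the median gene 2 were lower and 2 higher, where 3.02% and 4.83% of all genes were, and with no minimum fold 19 were lower and 3 higher, where 43.1% and 7.08% were, against 9 and 0. With the range of library numbers as a term, and within libraries from 1500 on, 1 was higher (1.47% and 1.44% of all genes), and leaving out 1 library gave 7 to 11 lower and 0 to 1 higher. For day 32 over day 22, 4 were lower after rescaling (2.87% of all genes) and 1 higher with no minimum fold (8.04%), and leaving out 1 library gave 7 to 9 lower. For day 40 over day 22, 1 was higher and 1 lower with the range as a term (0.452% and 0.615% of all genes), 1 lower within libraries from 1500 on (0.53%), and 0 to 1 lower with 1 library left out. The cause of these shifts was not tested. Heat calls stayed at 0 under every alternative run. No paired analysis was possible because every library number is unique to a bird and no groups share replicate numbers.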

Other observations

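WNT8B, a ligand of the developing forebrain, was named here after its values were seen. It had 6.08 FPKM in day 32 control library 1315 and at most 0.374 FPKM in the other 97 libraries. The same library was highest of all 98 in the neuronal genes SNAP25 (133 FPKM, others at most 76.7 FPKM), SYT1 (115 FPKM, others at most 41.5 FPKM) and NEFL (136 FPKM, others at most 104 FPKM). Within its group it had the lowest WIF1 (11.9 FPKM), FRZB (18.9 FPKM) and WNT6 (1.39 FPKM) and the highest DKK3 (103 FPKM). RSPO4 was also at its highest of all libraries there, at 1.73 FPKM.

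The libraries in which AXIN1 was at most 1.76 FPKM numbered 2 of 5 heat-stressed and 3 of 6 control birds at day 26, 3 of 6 heat-stressed and 0 of 6 control birds at day 32, 1 of 5 heat-stressed and 1 of 5 control birds at day 40, and 10 of 17 heat-stressed and 7 of 10 control birds at day 42. At day 32 the heat difference of AXIN1 was -1.43 (SE 0.51, limma adjusted p = 0.75).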
